A study of Mus musculus with 6 samples.

Results

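ATP-binding cassette (ABC) genes were taken as the symbols that start with Abc, go on with a subfamily letter from a to g and a number, and end there or with an a or b. The rule found 50 members among the 23183 gene symbols counted in 6 tumours. Relatives with other names, such as *Tap1*, *Tap2* and *Cftr*, fall outside it. The tumours were of UV2237M, a mouse fibrosarcoma line (a malignant tumour of connective tissue cells), and all 6 are labelled as wild type. In 3 of them, called treated here, gold nanoclusters (GNC), which turn absorbed light into heat, were given on day 1 and day 7 with near-infrared (NIR) irradiation. The other 3, called untreated, received nothing. The series title names quercetin and docetaxel, but no sample is labelled as having received a drug, so the comparison concerns the state of the pumps after GNC with NIR alone. The labels name neither the host animals nor the day of harvest, and nothing states whether each tumour grew in its own animal. The p-values therefore measure the spread between these samples, which may be technical.

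ABC proteins bind and split ATP, and most of them use it to move a substrate across a membrane. P-glycoprotein and the multidrug resistance-associated proteins push drugs out of the cell, which is how tumours can become resistant to several drugs at once, and taxanes such as docetaxel are substrates of P-glycoprotein. Other members move lipids and sterols, serve peroxisomes and mitochondria, or, in subfamilies E and F, move nothing and work in translation.

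No ABC gene passed the test between treated and untreated tumours, and the drug efflux pumps did not lie on the same side. *Abcc1*, *Abcc4*, *Abcb1a* and *Abcb1b* were higher in every treated tumour than in any untreated one, while *Abcc3*, *Abcc5*, *Abcc10* and *Abcg2* had a lower mean in treated tumours. The lipid gene *Abca9* and the peroxisomal gene *Abcd2* were lower in every treated tumour. Of the 50 members, 29 had enough counts to be tested, and 0 were called by edgeR's quasi-likelihood test at a Benjamini-Hochberg adjusted p under 0.05, as in 0% of the 12517 genes tested. The smallest adjusted p of a member was 0.592, which was also the smallest of all genes. DESeq2 and limma-voom also called 0 members, and DESeq2 called 0.368% of all genes. In counts simulated with the spread of all libraries, edgeR found 3 of 100 planted 2-fold changes and 49 of 100 planted 4-fold changes. A result of 0 calls therefore does not show that levels were equal. At an unadjusted p under 0.05 edgeR had 4 members, against 8.17% of all tested genes. They were *Abcc1* and *Abcc4*, which were higher (3.32% of all genes were), and *Abca9* and *Abcd2*, which were lower (4.85%).

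Treated and untreated values were apart in 10 of the 29 tested members, against 20.8% of all tested genes. In 7 of them the treated values lay above the untreated ones (10.6% of all genes did) and in 3 below (10.2%). The median log2 fold change of the tested members was 0.05, from -1.49 to 1.24, and that of all tested genes was 0.00. Log2 fold changes here are treated over untreated with the standard error of the edgeR fit, and expression is given as CPM, read counts scaled to a common library size with TMM factors. Triplets of values are in the order of libraries 1, 2 and 3 of each group.

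Untreated 2 stood apart from the other 5 libraries, and ABC genes show it. Total counts ran from 4680295 in that library to 8019294, and its mean distance to the others was 1.22 in log2 CPM, against 0.611 to 0.729. Among all tested genes, the lowest of 5 classes of GC content had a median log2 deviation of 0.76 in untreated 2, and the highest class one of -0.76. Among the 29 tested members untreated 2 held the lowest of the 6 values in 14 and the highest in 11. Its log2 ratio to the mean of untreated 1 and 3 had a Pearson correlation of -0.55 and a Spearman correlation of -0.58 with GC content over these 29 genes, which share the libraries, and is given as a description. *Abca2*, with 57.5% GC, had 12.02 CPM in that library, while untreated 1 and 3 held 100.4 and 102.2 CPM. *Abce1*, with 40.3% GC, had 616.1 CPM there and 232.9 and 247.9 CPM in the others. Without this library edgeR still called 0 of 30 tested members and 0% of all genes. At an unadjusted p under 0.05 it then had 8 members, against 18.4% of all genes. Of these, 6 were higher (9.55% of all genes) and 2 lower (8.85%). Groups were then apart in 17 of 30 members, against 39.2% of all genes. When the trend of each library with GC content and transcript length was removed instead, 5 members had an unadjusted p under 0.05, against 11.8% of all genes. Of these, 2 were higher (5.22% of all genes), *Abcc4* and *Abcc9*, and 3 were lower (6.61%), *Abca9* and *Abcd2* among them.

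**Figure D1:**
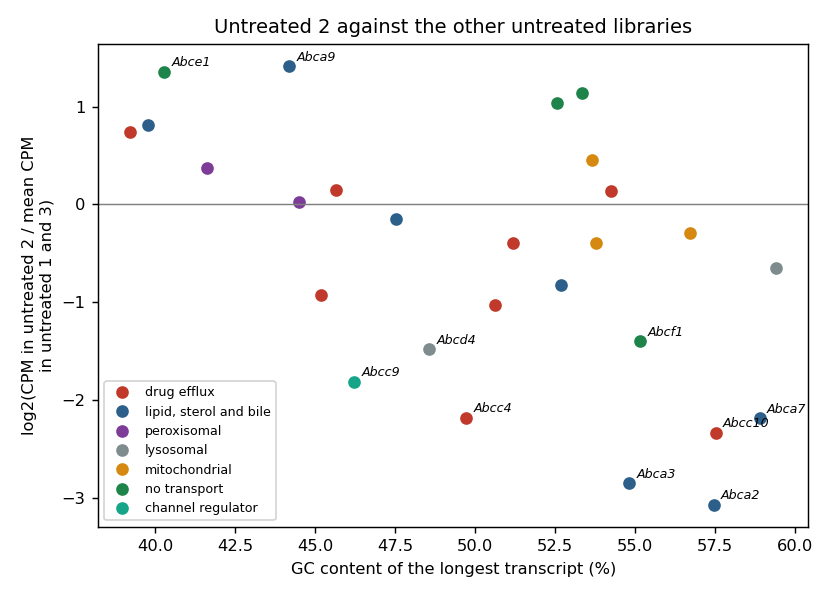
Log2 ratio of CPM in untreated 2 to the mean CPM of untreated 1 and 3 (vertical axis) against the GC content of each gene's longest transcript in percent (horizontal axis), 1 point for each of 27 tested ABC genes, coloured by role. *Abca2*, *Abca3*, *Abca7* and *Abcc10*, all GC-rich, lay lowest, and *Abca9* and *Abce1* lay highest.

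Among the drug efflux genes, *Abcc1* codes for multidrug resistance-associated protein 1, which exports drugs and glutathione conjugates, and it was the most abundant of them. It had 275.8, 212.8 and 261.6 CPM in the treated tumours, against 181.8, 144.5 and 197.1 CPM in the untreated tumours. Every treated value lay above every untreated one. The difference on the log2 scale was 0.52 ± 0.22 with an unadjusted p of 0.0471 and an adjusted p of 0.592 from edgeR. Without untreated 2 the change was 0.39 ± 0.13 (unadjusted p 0.0198, adjusted p 0.239). With the trend of each library with GC content and transcript length removed, it was 0.19 ± 0.25 with an unadjusted p of 0.459.

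*Abcc4*, the multidrug resistance-associated protein that also exports cyclic nucleotides, had the largest positive log2 fold change of the tested members. It reached 46.6, 38.7 and 54.1 CPM in the treated tumours, against 21.4, 5.79 and 31.2 CPM in the untreated tumours. The groups were apart, and untreated 2 was far below the other untreated libraries. On the log2 scale the difference was 1.24 ± 0.52 with all libraries (unadjusted p 0.0497, adjusted p 0.592, edgeR) and 0.81 ± 0.21 without untreated 2 (unadjusted p 0.00476, adjusted p 0.227). DESeq2 without untreated 2 gave 0.81 ± 0.24 with an adjusted p of 0.0462 and so called *Abcc4*, 1 of 30 tested members, where it called 2% of all genes. That combination was chosen after seeing the data. With GC content and length corrected the value was 1.19 ± 0.38 (unadjusted p 0.0146, adjusted p 0.403, edgeR).

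P-glycoprotein is coded by a pair of neighbouring genes in rodents, *Abcb1a* (chromosome 5, 8660077 to 8748575, mm10) and *Abcb1b* (chromosome 5, 8798147 to 8866315, mm10), both protein-coding on the plus strand. They are close copies. The longest stretch that their longest GENCODE M21 transcripts share without a difference runs over 338 bases of coding sequence, and 15.5% of the 50-base words of *Abcb1a* and 18.0% of those of *Abcb1b* are found in the other. Below, the first part of that stretch is printed from each gene with 30 bases before it, to show how reads from the pair can be told apart at some places and not at others. Capitals mark the 4 bases that differ. The *Abcb1a* piece lies in exons 12 and 13 at chr5:8702267-8702506, and the *Abcb1b* piece in exons 12 and 13 at chr5:8824587-8824826, with an intron inside each span. Both are read on the plus strand of GRCm38.
Abcb1a: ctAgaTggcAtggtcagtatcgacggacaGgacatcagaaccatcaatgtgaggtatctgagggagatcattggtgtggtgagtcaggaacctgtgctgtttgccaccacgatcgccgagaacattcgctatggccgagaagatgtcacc
Abcb1b: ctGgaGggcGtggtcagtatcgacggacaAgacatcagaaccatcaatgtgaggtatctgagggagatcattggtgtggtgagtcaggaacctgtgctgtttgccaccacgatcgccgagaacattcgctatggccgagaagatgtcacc

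Because counting can split such reads, the pair was also summed. Together the genes had 56.2, 44.2 and 44.2 CPM in the treated tumours, against 31.2, 37.4 and 38.8 CPM in the untreated tumours. The treated values lay above the untreated ones. For the sum the log2 fold change was 0.43 ± 0.20 with an unadjusted p of 0.0718 and an adjusted p of 0.592 (edgeR), and 0.45 ± 0.17 (unadjusted p 0.0286, adjusted p 0.243, edgeR) in the fit that left out untreated 2. Almost all of it was *Abcb1b*, which held 94.9%, 93.3% and 92.4% of the pair's counts in the treated tumours, against 92.8%, 96.4% and 92.7% in the untreated tumours. The exact 95% binomial intervals of these shares, which cover counting error only, ran from 89.2% to 97.1% over treated and from 88.3% to 98.7% over untreated tumours, and the intervals of all 6 libraries overlapped.

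*Abcb1b* alone had 53.3, 41.3 and 40.8 CPM in the treated tumours, against 29.0, 36.1 and 36.0 CPM in the untreated tumours, a log2 fold change of 0.42 ± 0.21 (unadjusted p 0.0816, adjusted p 0.592, edgeR). *Abcb1a* had 2.85, 2.99 and 3.35 CPM in the treated tumours, against 2.26, 1.34 and 2.82 CPM in the untreated tumours. These rest on 16, 22 and 27 counts in treated and 15, 6 and 23 counts in untreated tumours, and the log2 fold change of *Abcb1a* was 0.49 ± 0.39 (adjusted p 0.675, edgeR), and 0.26 once untreated 2 was left out. The gap between its groups was smaller than 1 count is worth in any library, since 3 counts were worth 0.367 to 0.668 CPM.

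The remaining tested efflux genes had lower means in treated tumours, and their groups overlapped. *Abcc5*, which exports cyclic nucleotides and nucleotide analogues, had 90.4, 110.7 and 99.6 CPM in the treated tumours, against 147.6, 67.5 and 127.2 CPM in the untreated tumours. Of the untreated tumours, only untreated 2 lay below the treated range. The log2 fold change of *Abcc5* was -0.19 ± 0.31 with all libraries and -0.46 ± 0.13 without untreated 2 (unadjusted p 0.00707, adjusted p 0.227, edgeR). *Abcg2*, the breast cancer resistance protein, had 15.7, 12.5 and 13.0 CPM in the treated tumours, against 13.0, 25.6 and 17.7 CPM in the untreated tumours, with a log2 fold change of -0.45 ± 0.30 and of -0.18 without untreated 2.

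*Abcc3*, a pump for conjugated organic anions, had 13.4, 24.0 and 19.8 CPM in the treated tumours, against 22.3, 25.8 and 24.5 CPM in the untreated tumours, a log2 fold change of -0.34 ± 0.26. Treated 1 was the lowest, and without it the value was -0.15. *Abcc10*, another multidrug resistance-associated protein, had 11.2, 17.6 and 16.1 CPM in the treated tumours, against 23.4, 4.23 and 19.3 CPM in the untreated tumours, and its log2 fold change was -0.07 ± 0.55, and -0.51 once untreated 2 was left out. *Abcb5* had 1 count in all 6 libraries, in treated 2. *Abcc2*, the pump of the bile canaliculus, had 1 count in treated 2 and 1 in untreated 1.

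All 10 efflux genes together had 509.3, 460.9 and 508.5 CPM in the treated tumours, against 441.0, 310.8 and 455.8 CPM in the untreated tumours, of which *Abcc1* made up 46.2% to 54.2% in treated and 41.2% to 46.5% in untreated tumours. Of the 8 tested, 4 had a log2 fold change above 0 and 4 below, with a median of 0.17, and 0.04 once untreated 2 was left out. The median of all tested genes was 0.00 in both fits.

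**Figure D2:**
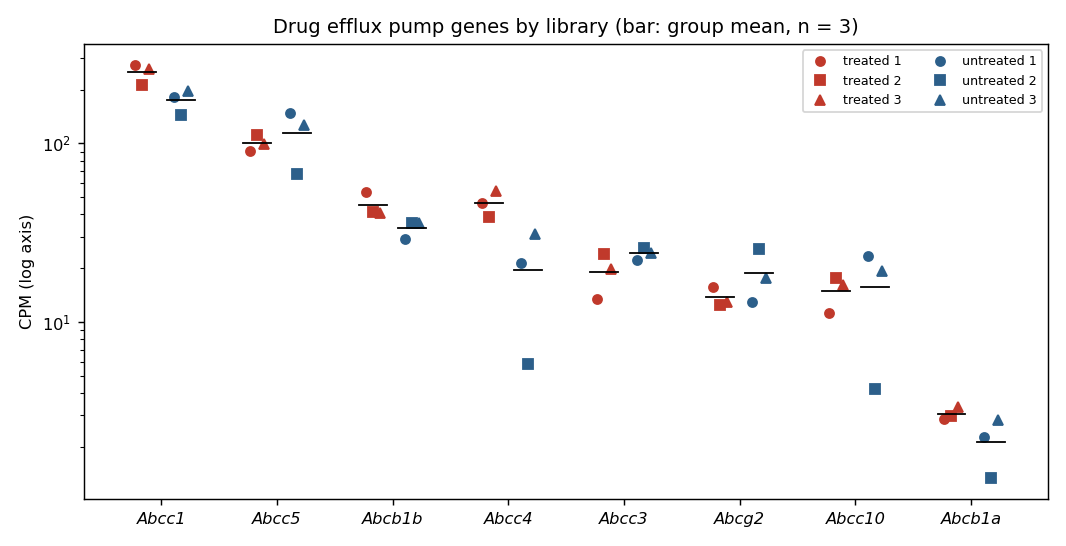
CPM on a log axis for the 8 tested drug efflux genes, with 1 point per library (red treated, blue untreated, marker shape the replicate number) and a bar at each group mean (n = 3). The treated points of *Abcc1*, *Abcb1b*, *Abcc4* and *Abcb1a* lie above the untreated ones, and in *Abcc5*, *Abcc3*, *Abcg2* and *Abcc10* the groups overlap.

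Promoters of 3 efflux genes are shown beside these values, *Abcb1b* and *Abcc4* from the genes with groups apart and *Abcc5* as an efflux gene with the heat shock letters. They are the 250 bases before the RefSeq start on GRCm38.p6, read 5′ to 3′ on the gene's strand, at chr5:8797897-8798146 (plus strand), chr14:118706220-118706469 (minus strand) and chr16:20426395-20426644 (minus strand). Capitals mark motif letters found on either strand.
Abcb1b: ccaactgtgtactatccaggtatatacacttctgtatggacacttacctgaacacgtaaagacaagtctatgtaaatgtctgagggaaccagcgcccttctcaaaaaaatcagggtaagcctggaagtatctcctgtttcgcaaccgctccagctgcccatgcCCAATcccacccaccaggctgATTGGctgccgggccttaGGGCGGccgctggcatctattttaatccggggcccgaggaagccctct
Abcc4: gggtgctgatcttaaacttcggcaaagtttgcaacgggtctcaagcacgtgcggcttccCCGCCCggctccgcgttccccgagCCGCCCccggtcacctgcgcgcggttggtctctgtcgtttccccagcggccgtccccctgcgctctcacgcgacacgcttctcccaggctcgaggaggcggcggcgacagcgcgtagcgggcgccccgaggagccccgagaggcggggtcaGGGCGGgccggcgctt
Abcc5: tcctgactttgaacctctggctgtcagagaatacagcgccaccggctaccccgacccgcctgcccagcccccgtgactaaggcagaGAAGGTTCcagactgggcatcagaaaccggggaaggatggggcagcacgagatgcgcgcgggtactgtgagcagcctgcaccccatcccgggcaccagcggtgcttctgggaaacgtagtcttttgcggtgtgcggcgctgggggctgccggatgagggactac

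The letters searched were those of the heat shock element (GAANNTTC), the AP-1 site (TGANTCA), the CCAAT box, the GC box (GGGCGG) and the TATA box (TATAAA), on both strands, and in the printed windows no match overlapped another. RefSeq promoters were at hand for 38 members and 27025 genes in all. The heat shock letters stood in 2 of the 38, *Abcc5* and *Abcg8*, and in 7.73% of all genes. AP-1 letters stood in 0 of the 38 and in 7.82% of all genes. CCAAT stood in 34.2% of the 38 and 37.5% of all genes, the GC box in 44.7% and 35.4%, and TATAAA in 13.2% and 14.3%. A match is a description of the letters and not a bound site.

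Lipid, sterol and bile transporters were 18 members, of which 7 were tested, 4 with a log2 fold change above 0 and 3 below, a median of 0.05 against 0.00 for all tested genes. Without untreated 2 these 7 had 1 above 0 and 6 below. *Abca9*, a member of a cluster of *Abca* genes on chromosome 11 (110100749 to 110168196, mm10), was the member with the lowest log2 fold change. It had 3.39, 9.91 and 6.82 CPM in the treated tumours, against 14.0, 33.0 and 10.6 CPM in the untreated tumours. The groups did not overlap, and untreated 2 was the highest. Its log2 fold change was -1.49 ± 0.55 with an unadjusted p of 0.0286 and an adjusted p of 0.592 (edgeR), and, without untreated 2, -0.86 ± 0.40 (adjusted p 0.293). Its neighbours *Abca6*, *Abca8a* and *Abca8b* had 20, 20 and 24 counts over the treated and 7, 10 and 12 over the untreated tumours, too few to pass the filter.

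*Abca1*, which loads cholesterol and phospholipid onto apolipoprotein A-I, had 56.0, 127.3 and 88.7 CPM in the treated tumours, against 101.1, 112.9 and 149.3 CPM in the untreated tumours, with a log2 fold change of -0.42 ± 0.33 (adjusted p 0.675, edgeR). The value was -0.17 without treated 1, -0.24 without untreated 3, -0.74 without treated 2 and -0.81 with GC content and length corrected. *Abcg1*, which passes cholesterol to high density lipoprotein, had 8.21, 15.2 and 16.1 CPM in the treated tumours, against 14.9, 8.24 and 14.2 CPM in the untreated tumours. Treated 1 was the lowest treated library for both genes. Macrophages use these pumps to unload cholesterol, and 6 of 8 macrophage markers had a log2 fold change below 0, with summed levels of 362.7 to 680.2 CPM in treated tumours and 806.5 to 1322 CPM in untreated tumours and no marker at 0 throughout. Treated 1 was lowest in that sum too. Untreated 2 had the highest sum, but the lowest *Abcg1* of the untreated tumours, and its *Abca1* lay below that of untreated 3. The log2 fold change of *Abcg1* was 0.08 ± 0.36, and -0.14 once untreated 2 was left out. The part of the markers in the values of *Abca1* and *Abcg1* was not tested. In bulk tumour RNA, fewer cells of a type and less RNA per cell cannot be told apart.

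*Abca7*, a phospholipid transporter related to *Abca1*, had the highest log2 fold change of the lipid group, with 44.2, 50.1 and 59.0 CPM in the treated tumours, against 48.7, 10.02 and 42.6 CPM in the untreated tumours. Its log2 fold change was 0.59 ± 0.52 and 0.16 without untreated 2. *Abca2*, a transporter of the endosome and lysosome, had 89.6, 106.9 and 100.9 CPM in treated tumours, and its log2 fold change was 0.47 ± 0.67, and -0.04 once untreated 2 was left out. *Abca3* and *Abca5* had log2 fold changes of 0.05 ± 0.63 and -0.37 ± 0.29 with all libraries, and of -0.43 and -0.06 once untreated 2 was left out.

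*Abca12*, the lipid transporter of the skin barrier, did not pass the filter on low counts. It had 0, 0 and 7 counts in the treated tumours, against 60, 29 and 0 counts in the untreated tumours. The keratinocyte markers *Krt5*, *Krt14*, *Krt1*, *Krt10*, *Dmkn*, *Calm4*, *Hrnr* and *Lor* summed to 18.2, 4.75 and 59.5 CPM in the treated tumours, against 1203, 654.2 and 5.75 CPM in the untreated tumours. Libraries with *Abca12* were the 3 with the highest sums, in the same order. *Lor* had no count in any treated tumour, and 423, 10 and 0 counts in the untreated tumours. With no filter edgeR gave *Abca12* an unadjusted p of 0.0308 and an adjusted p of 0.623. Its unadjusted p in edgeR was 0.122 without treated 1, 0.135 without treated 2 and 0.0510 without treated 3. Without untreated 3 the unadjusted p was 0.00400 and the adjusted p 0.231. Untreated 3 had no *Abca12* count, so that fit kept only untreated libraries with the gene, and its p cannot be read as support. The level was lower in treated tumours in each of these fits. The part of these markers in the *Abca12* counts was not tested.

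Peroxisomal transporters of subfamily D, which bring long fatty acids into the peroxisome, had log2 fold changes below 0 in 3 of 3 members. *Abcd2* had 5.53, 5.56 and 3.72 CPM in the treated tumours, against 7.55, 9.80 and 7.59 CPM in the untreated tumours, without overlap. The log2 fold change of *Abcd2* was -0.75 ± 0.30 (unadjusted p 0.0407, adjusted p 0.592, edgeR), and -0.63 ± 0.30 (unadjusted p 0.0716) once untreated 2 was left out. *Abcd3* had 52.4, 56.1 and 55.3 CPM in the treated tumours, against 56.7, 58.1 and 57.5 CPM in the untreated tumours. Its groups did not overlap, but the log2 fold change was -0.07 ± 0.17.

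Of the lysosomal pair, *Abcd4*, needed for the release of vitamin B12, had 21.6, 21.2 and 22.2 CPM in the treated tumours, against 22.6, 7.35 and 18.4 CPM in the untreated tumours. *Abcb9*, a peptide transporter, had 1.61, 1.63 and 1.86 CPM in the treated tumours, against 1.81, 0.891 and 0.979 CPM in the untreated tumours. These values of *Abcb9* rest on 9, 12 and 15 counts in treated and 12, 4 and 8 counts in untreated tumours. The log2 fold changes of *Abcd4* and *Abcb9* were 0.42 ± 0.39 and 0.45 ± 0.45, with overlap in both. Leaving out untreated 2 gave *Abcd4* 0.08 and *Abcb9* 0.30, leaving out untreated 1 gave them 0.72 and 0.83, and *Abcb9* was at 0.29 without untreated 3.

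Mitochondrial members of subfamily B serve iron, heme and redox balance, and 3 of 4 had a log2 fold change above 0, or 4 of 4 without untreated 2. *Abcb8* had 47.6, 38.7 and 42.1 CPM in the treated tumours, against 34.4, 28.1 and 34.5 CPM in the untreated tumours, without overlap, and a log2 fold change of 0.40 ± 0.19 (unadjusted p 0.0761, adjusted p 0.592, edgeR), or 0.20 (unadjusted p 0.328) with GC content and length corrected. *Abcb6*, a porphyrin transporter, had 18.2, 17.1 and 20.5 CPM in the treated tumours, against 16.0, 12.5 and 16.9 CPM in the untreated tumours, also without overlap, with a log2 fold change of 0.29 ± 0.22, which was 0.17 without untreated 2 and 0.12 with that correction. *Abcb10*, of the inner membrane, had 40.1, 34.3 and 36.0 CPM in the treated tumours, against 33.7, 45.4 and 32.6 CPM in the untreated tumours, a log2 fold change of -0.01 ± 0.21.

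Members that move no substrate include the most abundant gene of the family. *Abce1*, which splits ribosomes for recycling, had 362.0, 293.3 and 304.0 CPM in the treated tumours, against 232.9, 616.1 and 247.9 CPM in the untreated tumours. All treated values lay above untreated 1 and 3 and below untreated 2. The log2 fold change of *Abce1* was -0.19 ± 0.40 with all libraries and 0.40 ± 0.13 without untreated 2 (unadjusted p 0.0131, adjusted p 0.229, edgeR), so its direction turned when that library was left out. *Abcf2* likewise had 145.4, 102.9 and 122.3 CPM in the treated tumours, against 91.8, 203.5 and 93.5 CPM in the untreated tumours, with log2 fold changes of -0.07 ± 0.36 and, without untreated 2, 0.41.

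*Abcf1*, which acts in translation initiation, had 144.9, 129.6 and 174.2 CPM in the treated tumours, against 114.2, 46.1 and 129.4 CPM in the untreated tumours. Its groups just did not overlap, and the log2 fold change was 0.63 ± 0.38, and 0.29 once untreated 2 was left out. *Abcf3* had 67.6, 67.6 and 59.9 CPM in the treated tumours, against 75.8, 141.4 and 62.3 CPM in the untreated tumours, with a log2 fold change of -0.52 ± 0.33, and -0.09 once untreated 2 was left out.

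*Abcc9* codes for SUR2, the regulatory subunit of a potassium channel found in pericytes and muscle. It had 8.38, 15.2 and 19.0 CPM in the treated tumours, against 6.34, 2.45 and 10.9 CPM in the untreated tumours. Treated 1 lay below untreated 3. The log2 fold change was 1.09 ± 0.54 (unadjusted p 0.0824, adjusted p 0.592, edgeR) and 0.71 without untreated 2. Pericyte and smooth muscle markers had 4 of 7 tested log2 fold changes above 0 and summed to 357.1 to 625.1 CPM in treated tumours and 213.1 to 769.5 CPM in untreated tumours, with no marker at 0 throughout. That sum was mostly *Pdgfrb*, 61.6% to 89.8% of it in treated tumours and 71.2% to 91.1% in untreated ones. Without *Pdgfrb* it was 50.5, 71.3 and 137.1 CPM in the treated tumours, against 81.3, 61.5 and 63.4 CPM in the untreated tumours. Log2 fold changes below 0 were those of *Pdgfrb* (-0.29), *Cspg4* (-0.15) and *Acta2* (-0.05). Above 0 were *Myh11* (0.52), *Des* (1.01), *Rgs5* and *Kcnj8*. *Des* had 5.53, 3.39 and 57.2 CPM in the treated tumours, against 17.8, 10.9 and 4.53 CPM in the untreated tumours. Only treated 3 lay above all untreated values of *Des*, and *Des* held 57.2 of the 137.1 CPM of that library. Its lowest log2 fold change in the fits without 1 library was -1.31. *Rgs5*, a pericyte gene, had 10.3, 16.7 and 17.6 CPM in the treated tumours, against 4.38, 14.5 and 8.57 CPM in the untreated tumours. Its log2 fold change was 0.72 ± 0.45. *Kcnj8*, whose product forms the channel with SUR2, had 1.43, 4.34 and 3.72 CPM in the treated tumours. In the untreated tumours it had 1.66, 1.56 and 1.59 CPM, and its log2 fold change was 0.99 ± 0.49. Treated 1 held 8 counts of *Kcnj8* and lay below every untreated tumour. The groups overlapped in both genes. Endothelial markers had 7 of 8 above 0 and summed to 129.9, 175.1 and 208.9 CPM in the treated tumours, against 96.9, 90.2 and 164.5 CPM in the untreated tumours, so that *Abcc9* and this sum put the 6 libraries in the same order. Skeletal muscle markers had 5 of 5 above 0 and summed to 19.4, 2.31 and 342.1 CPM in the treated tumours, against 82.7, 28.1 and 16.0 CPM in the untreated tumours, highest in treated 3 as *Abcc9* was. Without treated 3, 0 of 5 lay above 0, and *Abcc9* was at 0.83. The part of these lists in the *Abcc9* values was not tested. *Abcc8*, which codes for SUR1, had no count.

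**Figure D3:**
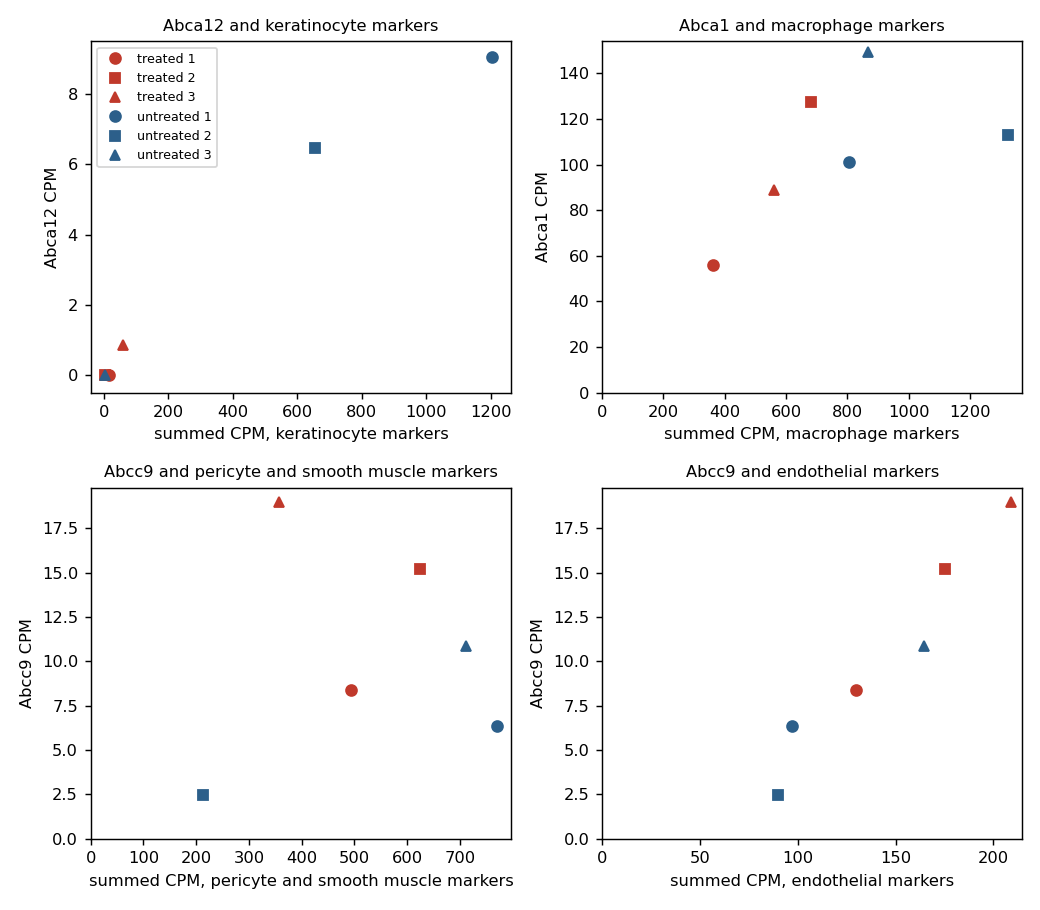
CPM of *Abca12*, *Abca1* and *Abcc9* (vertical axes) against the summed CPM of marker lists (horizontal axes), 1 point per library (red treated, blue untreated, marker shape the replicate number). *Abca12* was counted in untreated 1 and 2 and treated 3, and *Abcc9* was highest in treated 3, where the endothelial sum was 208.9 CPM.

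**Figure D4:**
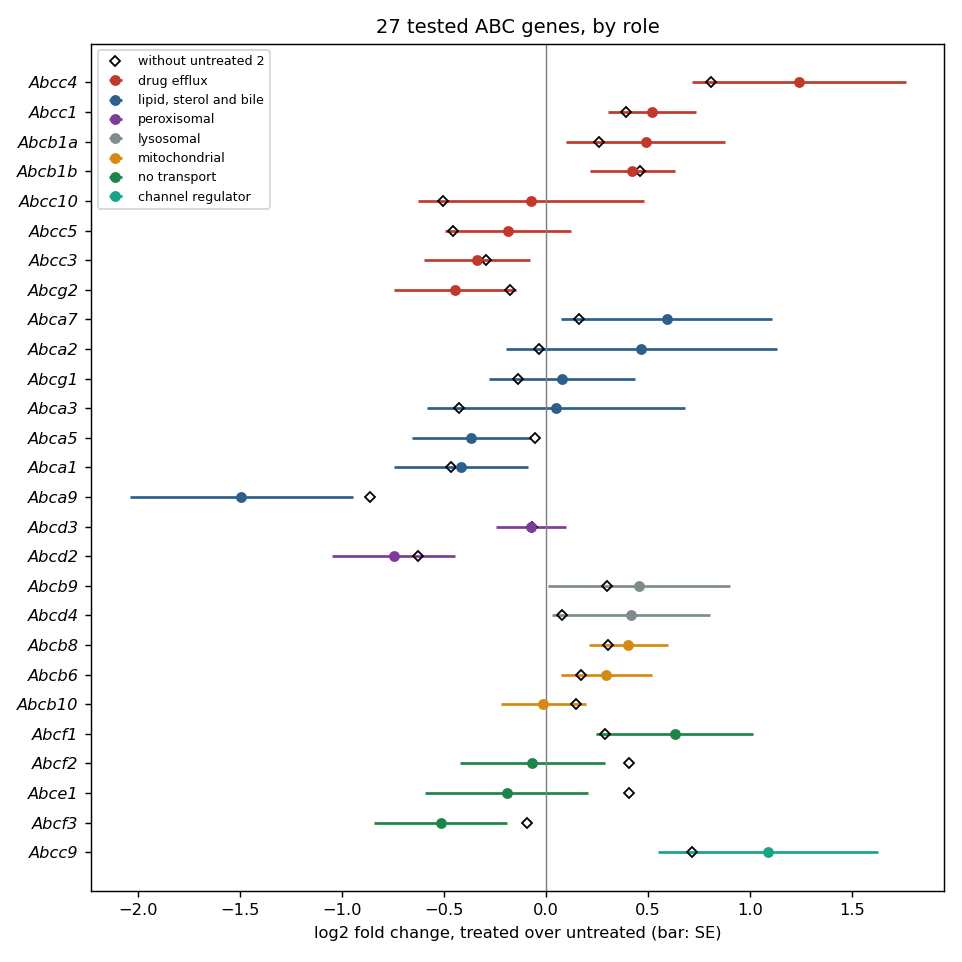
Log2 fold change, treated over untreated, with its SE (horizontal axis) for 27 tested ABC genes, grouped by role, with open diamonds for the edgeR fit without untreated 2. *Abcc4* lies at 1.24 and *Abca9* at -1.49. The diamonds of *Abca2*, *Abca3*, *Abcb10*, *Abce1*, *Abcf2* and *Abcg1* lie on the other side of 0 from their circles.

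Divided by transcript length, the levels of the family ran over a wide range. *Abce1* came first, with 84.3 ± 9.74 CPM per kilobase in treated tumours and 96.4 ± 57.2 in untreated ones (SD, n = 3). *Abcf2* had 48.1 ± 8.29 CPM per kilobase in treated tumours and 50.4 ± 24.9 in untreated ones, and *Abcf1* had 47.3 ± 7.16 in treated tumours and 30.5 ± 14.0 in untreated ones, so that these 2 did not differ beyond their spread. *Abcc1*, the first of the transporters, had 36.8 ± 4.87 CPM per kilobase in treated tumours and 25.7 ± 3.98 in untreated ones. *Abcf3* came next in treated tumours with 21.0 ± 1.44, but its mean lay above that of *Abcc1* in untreated tumours, with 30.1 ± 13.7. *Abcb1b* had 10.5 ± 1.65 in treated tumours and 7.82 ± 0.946 in untreated ones. The lowest tested members per kilobase were *Abcb1a* with 0.613 ± 0.0513 in treated tumours and 0.428 ± 0.150 in untreated ones, and *Abcb9* with 0.464 ± 0.0386 in treated tumours and 0.335 ± 0.139 in untreated ones. All 50 members summed to 1710 to 1794 CPM in treated tumours and 1572 to 1827 CPM in untreated tumours.

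The other 21 members did not pass the filter on low counts. With no filter edgeR fitted 18 of them and called 0, with *Abca12* at an unadjusted p under 0.05. *Abca14*, *Abca15* and *Abcc8* had no count in any library, which allows up to 0.668 CPM in untreated 2, the shallowest library, where 3 counts are the limit of a count of 0. Between 1 and 10 counts in all were found for 9 members, among them the bile salt pump *Abcb11* with 1 and the sterol pair *Abcg5* and *Abcg8* with 4 and 6. The remaining 9 had up to 96 counts, the most in *Abca12*. *Abcb4*, the phosphatidylcholine transporter of bile, had 0, 8 and 9 counts in the treated tumours, against 2, 1 and 3 in the untreated tumours. *Abcg4*, a sterol transporter, had 7, 10 and 14 counts in the treated tumours, against 20, 0 and 7 in the untreated tumours. The retinal gene *Abca4* had 13 counts over treated and 13 over untreated tumours.

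Genes that work with the pumps were described from lists, in which edgeR called 0 genes. The conjugation list holds enzymes that make conjugates for export by multidrug resistance-associated proteins, and others of glutathione supply and redox balance that make none. It had 11 of 14 tested members with a log2 fold change above 0 and 3 below, a median of 0.34. *Gstp1*, a glutathione transferase, had 51.6, 46.3 and 64.9 CPM in the treated tumours, against 40.6, 39.6 and 37.7 CPM in the untreated tumours, without overlap (log2 fold change 0.46 ± 0.20, adjusted p 0.592, edgeR). *Gsr*, glutathione reductase, had 119.3 ± 27.1 CPM in treated tumours and 73.7 ± 26.5 CPM in untreated tumours (SD, n = 3). Among 12 nuclear receptors and factors that regulate ABC genes, 7 were tested, 3 with a log2 fold change above 0 and 4 below. *Ahr*, the receptor for aromatic xenobiotics, had 80.4 ± 2.64 CPM in treated tumours and 63.3 ± 5.12 in untreated tumours. *Rxrb*, a retinoid X receptor, had 66.3 ± 5.80 CPM in treated tumours and 105.9 ± 49.3 in untreated ones. Untreated 2 held 162.8 CPM of *Rxrb*, against 78.6 and 76.3 CPM in untreated 1 and 3. The log2 fold change of *Rxrb* was -0.67 ± 0.33, and -0.23 without untreated 2, while that of *Ahr* was 0.34 ± 0.18 and 0.29. The xenobiotic receptors *Nr1i2* and *Nr1i3* were too low to test.

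Sterol efflux partners had 5 of 11 tested members above 0 and 6 below. *Lipa*, the lysosomal lipase that frees cholesterol, had 69.9, 96.0 and 67.9 CPM in the treated tumours, against 135.2, 250.3 and 108.1 CPM in the untreated tumours, without overlap (log2 fold change -1.08 ± 0.35, adjusted p 0.592, edgeR). *Mylip*, which marks the LDL receptor for degradation, had 44.6 ± 11.8 CPM in treated tumours and 75.6 ± 13.1 CPM in untreated tumours, without overlap (log2 fold change -0.76 ± 0.26, adjusted p 0.592, edgeR). DESeq2 without untreated 2, a combination chosen after seeing the data, called 2% of all genes and gave *Mylip* an adjusted p of 0.0182. There edgeR gave *Mylip* an adjusted p of 0.227. *Scarb1*, the receptor for high density lipoprotein, lay the other way, with 69.6, 57.1 and 77.3 CPM in the treated tumours, against 48.4, 36.3 and 47.2 CPM in the untreated tumours, without overlap (log2 fold change 0.63 ± 0.22, unadjusted p 0.0234, adjusted p 0.592, edgeR). In this list 2 genes had treated values above all untreated ones (10.6% of all tested genes did) and 2 below (10.2%). Drug uptake carriers had 3 of 8 tested members above 0 and 5 below. *Slco4a1*, an organic anion carrier, had 3.75, 6.11 and 10.9 CPM in the treated tumours, against 1.06, 0.445 and 2.57 CPM in the untreated tumours, without overlap (log2 fold change 2.26 ± 0.65, adjusted p 0.592, edgeR). *Slc22a5*, the carnitine carrier, had 13.9 ± 2.52 CPM in treated tumours and 27.7 ± 16.2 CPM in untreated tumours. Untreated 2 held 46.3 CPM of *Slc22a5*, against 19.0 and 17.6 CPM in untreated 1 and 3. Without untreated 2 the log2 fold change was 1.90 for *Slco4a1*, and that of *Slc22a5* went from -0.98 to -0.40. The peptide pumps *Tap1* and *Tap2* averaged 14.0 ± 3.65 and 39.8 ± 3.16 CPM in treated tumours and 18.4 ± 7.86 and 42.6 ± 24.1 CPM in untreated tumours. *Col3a1* and *Vim*, connective tissue markers of the labelled cell type, had 15591 ± 3035 and 3721 ± 247.1 CPM in treated tumours and 19938 ± 2128 and 3230 ± 302.1 CPM in untreated tumours, and no marker of that list was at 0. Of its 8 genes 4 had a log2 fold change above 0 and 4 below, from -1.22 for *Dcn* (unadjusted p 0.0324, edgeR) to 1.88 for *Col1a2* (unadjusted p 0.0846, edgeR). *Thy1* had 1.26 without overlap (unadjusted p 0.00514, adjusted p 0.592, edgeR). Without untreated 2 the values were -0.59 for *Dcn*, 1.34 for *Col1a2* and 1.10 for *Thy1*. In untreated 1, 2 and 3 *Dcn* had 315.6, 672.9 and 191.3 CPM, and *Col1a2* had 325.2, 47.9 and 872.1 CPM.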

How the data were processed

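Per the labels' protocols, RNA came from Trizol extracts and libraries from a strand-keeping kit. TopHat and the build mm10 are named by the submitters' processing notes, while the program that counted, its strand setting and its gene models are not given in the sources at hand. The authors deposited raw counts in whole numbers for each gene symbol. Samples were grouped by their titles. With edgeR 4.0.16 (R 4.3.3), filterByExpr at a smallest count of 10 kept 12517 genes, counts were scaled by TMM, and the groups were compared 2-sided with glmQLFit and glmQLFTest, with Benjamini-Hochberg adjustment over all genes tested. CPM use the TMM library sizes, and SE is the size of the log2 fold change over the root of F. With 3 against 3, exact permutation reaches 0.1 at best and was left out. DESeq2 1.42.0 and limma-voom (limma 3.58.1) were alternatives, and fits of members outside the filter and of marker lists without 1 library were added after seeing the data. The members, lists and tests were chosen with earlier results of these data known. Every drug efflux member, every member called, at an unadjusted p under 0.05 or without overlap, and the members of smallest p and of the other direction in each role were given in each sample, with *Abca2*, *Abca12*, *Abce1*, *Abcf2*, *Abcg1* and some untested members added after their values were seen, and the 2 members of smallest p were given for each partner list, with *Scarb1* and single marker genes added after their values were seen. Coordinates, lengths and GC content (99.4% of tested genes) come from GENCODE M21 on mm10, and promoters from RefSeq. Exons of 5 members overlap an antisense gene and 9 share 50-base words with another member, so their counts are less certain. Values of 2 tested members are not reported here, although the counts over all members include them. The steps were tested on simulated counts with planted changes. With the spread of all libraries, edgeR found 3 of 100 2-fold and 49 of 100 4-fold changes, with 1 false call. DESeq2 found 23 and 90 of them, with 45 false calls. With the smaller spread seen without untreated 2, and still 3 against 3, edgeR found 70 and 93, with 13 false calls.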

Additional observations from a re-analysis of the deposited data

How the results depend on the processing

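Of 430 log2 fold changes of 27 tested members under 16 alternatives, 398 kept their side of 0 and of the threshold, and 19 members stayed on their side of 0 in all of them. Called genes were 17 higher and 29 lower with the DESeq2 test, 104 higher and 153 lower with DESeq2 without untreated 2, and 0 to 4 lower when 1 library was left out. ABC members called were 1 with DESeq2 without untreated 2 (*Abcc4*, adjusted p 0.0462) and 0 in all other settings. Members at an unadjusted p under 0.05 were 2 with upper quartile scaling, 8 with DESeq2 without untreated 2 and 0 to 8 when 1 library was left out (0 without treated 1 or treated 3, 8 without untreated 2). The replicate numbers were not taken as pairs. Same-numbered libraries had correlations of -0.18, -0.11 and 0.11 in their deviations from the group means, and differently numbered ones -0.22 to 0.24. These cannot decide whether samples are paired, since untreated 2 moves the untreated mean. With the replicate block 2 members had an unadjusted p under 0.05 in edgeR, while the summed *Abcb1a* and *Abcb1b* had a log2 fold change of 0.42. That sum ran from 0.30 to 0.49 when 1 library was left out. Signs turned in 8 members. Over the fits without 1 library, log2 fold changes ran from -0.036 to 0.81 for *Abca2*, -0.43 to 0.50 for *Abca3*, -0.10 to 0.14 for *Abcb10*, -0.51 to 0.32 for *Abcc10*, -0.46 to 0.032 for *Abcc5*, -0.45 to 0.40 for *Abce1*, -0.28 to 0.41 for *Abcf2* and -0.14 to 0.32 for *Abcg1*. DESeq2 without untreated 2 gave -0.036 (*Abca2*), -0.43 (*Abca3*), 0.14 (*Abcb10*), 0.40 (*Abce1*), 0.41 (*Abcf2*) and -0.14 (*Abcg1*). GC and length correction gave -0.059 (*Abca3*), 0.17 (*Abce1*) and -0.16 (*Abcg1*). Limma-voom gave 0.0041 (*Abcb10*), 0.13 (*Abcc10*) and 0.028 (*Abcf2*), library totals alone gave 0.0031 (*Abcb10*), and the replicate block gave 0.15 (*Abcc10*) and 0.031 (*Abcf2*). The causes were not tested. By CPM without length *Abcc1* ranked 2 among the members in treated tumours, against 4 per kilobase. The biological coefficient of variation in edgeR was 33.7% with all libraries and 17.3% without untreated 2.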
